A study of Saccharomyces cerevisiae with 3 samples.

Results

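Probe sets 1 to 250 of a tiling array that covers chromosome VI of budding yeast (Saccharomyces cerevisiae) were taken by the number in their identifiers, c6Mbo0001 to c6Mbo0250. The deposited table holds these 250 probe sets and 1000 others, and all 250 have a value in each of the 3 samples. The number was taken as order along the chromosome, which no source used here states. The last member, c6Mbo0250, read 4.82 in uncleaved DNA, 5.05 with H2b-MN and 5.02 with Nup2-MN on the log2 scale, and the next probe set outside, c6Mbo0251, read 6.66, 6.22 and 6.26.

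Chromatin endogenous cleavage (ChEC) uses a fusion of a chromatin-associated protein to micrococcal nuclease (MN), which cuts DNA only when calcium is present. Adding calcium makes the fusion cut close to where the protein is bound. Histone H2b is a core histone and part of nucleosomes along most of the genome. Nup2 is a mobile nucleoporin of the nuclear basket of the pore complex, through which some active yeast genes contact the nuclear envelope. All 3 samples came from yeast grown with 2% raffinose as carbon source and given 2% galactose for 1 h, which switches on the genes of galactose use. One sample was DNA left uncleaved, one was DNA cleaved by H2b-MN for 1 min on ice, and one was DNA cleaved by Nup2-MN for 5 min at 30 °C. The strains and the promoters that drive the fusions were not given in the sources used here, and the fusions cut for unequal times and at unequal temperatures.

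The table gives the log2 signal averaged over 3 independent experiments, so each sample has 1 value per probe set. The spread between experiments was not analysed here, no difference below could be set against it, and none carries a test. Whether cleavage raises or lowers the signal of a probe set is not stated in those sources. Of the 250 identifiers, 0 matched the gene table at hand, so genes, coordinates and sequences of these probe sets were not analysed here.

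The first 10 probe sets held 8 of the 50 brightest of the series and differed little between the samples. The cut at 10 was set with the values known, so both traits are descriptions only. Probe set c6Mbo0007 was the brightest of the whole array by mean signal, with 11.23 in uncleaved DNA, 11.38 with H2b-MN and 11.28 with Nup2-MN. Second in that order was c6Mbo0001, at 11.12, 10.82 and 10.71. Both were bright in every sample, and 6 of the 10 brightest probe sets of the series lay among the first 10. The level of a probe set also depends on its probes, so brightness was not read as an amount of DNA.

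Within the first 10, uncleaved DNA ran from 8.97 at c6Mbo0003 to 11.23. Going on in order, c6Mbo0002 read 10.66 in uncleaved DNA, 10.54 with H2b-MN and 10.37 with Nup2-MN, and c6Mbo0004 read 10.83, 10.73 and 10.56. In both, uncleaved DNA was the highest sample by a small margin. The signals were 9.90, 9.75 and 9.75 at c6Mbo0005, 10.68, 10.75 and 10.52 at c6Mbo0008, and 10.46, 10.61 and 10.37 at c6Mbo0009. At c6Mbo0010 they were 9.65, 9.84 and 9.94, with uncleaved DNA the lowest sample, and at c6Mbo0003 they were 8.97, 8.92 and 8.85. Probe set c6Mbo0006 read 9.33, 8.81 and 9.15, the widest gap of the 10 (0.51). Over the 10, the gap between the highest and the lowest sample had a median of 0.26, and 0 of them reached 1, a 2-fold gap. The 14 other members with a mean signal above 9 had a median gap of 0.54 and 3 of them reached 2-fold. The 110 such probe sets outside the 250 had a median of 0.62, and 19 of them (17.3%) reached 2-fold. These sets were not matched to the first 10 in level, and the first 10 were taken without that cut (c6Mbo0003 had a mean signal of 8.91). The brightest of the 14, c6Mbo0025, had a mean signal of 9.72, while the first 10 had a median of 10.56 in uncleaved DNA. Leaving out the first 10 probe sets lowered the median of the members in uncleaved DNA from 7.83 to 7.72, against 7.50 in the other 1000 probe sets.

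**Figure D1:**
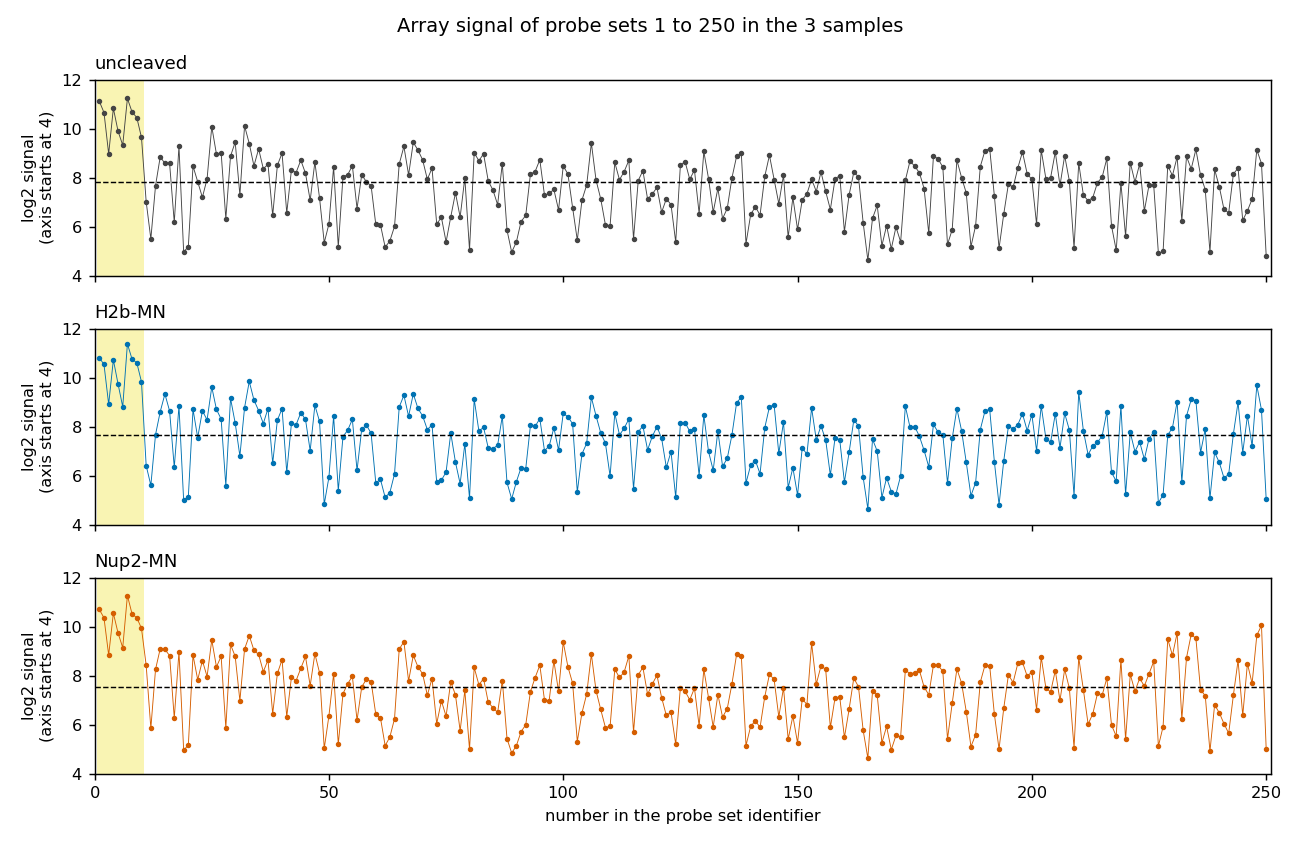
Log2 signal (vertical axis, starting at 4) of probe sets 1 to 250 (horizontal axis, number in the identifier) in uncleaved DNA, H2b-MN and Nup2-MN, 1 point per probe set. The shaded band marks probe sets 1 to 10, between 8.81 and 11.38 in the 3 samples, and each dashed line is the median of the 250 (7.83, 7.68 and 7.54).

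Right after the bright probe sets, the samples separated at c6Mbo0011. This probe set read 7.02 in uncleaved DNA, 6.42 with H2b-MN and 8.43 with Nup2-MN. Nup2-MN was thus the high sample, 4.04-fold above H2b-MN (log2 difference 2.02). This was the largest Nup2-MN minus H2b-MN difference of the 250 and the 3rd largest on the whole array. The step from c6Mbo0010, where that difference was 0.10, was also the largest upward step between neighbours among the members (1.91, against a median absolute step of 0.24). Over probe sets 11 to 16, the mean difference from uncleaved DNA was 0.56 for Nup2-MN and 0.01 for H2b-MN. The Nup2-MN difference ran from 0.24 to 1.41 there, the latter at c6Mbo0011. At c6Mbo0012 to c6Mbo0016 the gap between the highest and lowest sample ran from 0.24 to 0.75, against a median of 0.56 over the 250. At c6Mbo0015 H2b-MN was the higher fusion (Nup2-MN minus H2b-MN -0.26). The stretch 11 to 16 was picked after its values were seen.

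Most of the 250 probe sets differed by less than 2-fold between samples. The gap between the highest and the lowest sample had a median of 0.56 over the 250 and of 0.61 over the other 1000. It stayed under 0.2 in 29 members (11.6%, against 9.70% of the others) and reached 1 in 30 (12.0%, against 15.7%). These 30 are all the members past 2-fold in any of the 3 comparisons. None of the 50 dimmest members, with mean signals from 4.64 to 6.15, was among them. Calls were also scarce at dim signal on the whole array. Leaving out the 10% of probe sets lowest in mean signal kept its Nup2-MN minus uncleaved counts at 85 higher and 23 lower. In H2b-MN minus uncleaved it kept 34 of 35 higher and 30 of 30 lower calls. For Nup2-MN minus uncleaved, the SD over probe sets was 0.35 in the 50 dimmest members and 0.63 in the 50 members of middle signal. The dimmest, c6Mbo0165, was also the dimmest probe set of the series, at 4.64, 4.65 and 4.64. Next among the members came c6Mbo0089, at 4.96, 5.05 and 4.85, the 25th dimmest of the series. Probe set c6Mbo0165 held the lowest signal of each sample, and c6Mbo0089 lay not far above it.

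**Figure D2:**
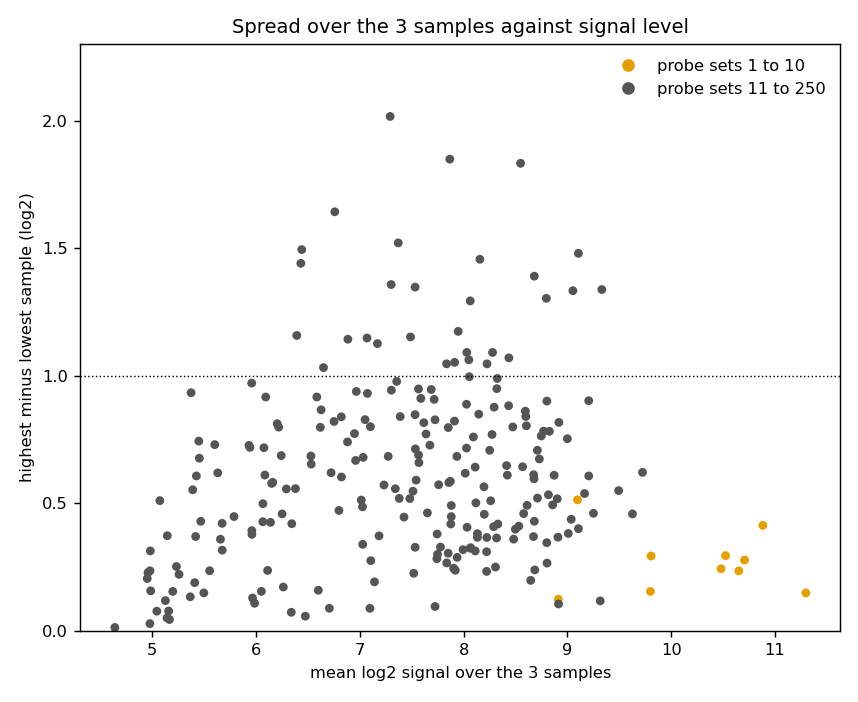
Gap between the highest and the lowest of the 3 samples (vertical axis, log2) against mean log2 signal over the samples (horizontal axis) for the 250 probe sets, 1 point each. The first 10 probe sets, in orange, lie at the bright end with gaps up to 0.51, and the 30 points on or above the dotted line reach 2-fold.

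In the comparison of Nup2-MN with uncleaved DNA, which asks where the nucleoporin fusion set the DNA apart, 11 of the 250 (4.40%) had a signal higher by at least 2-fold with Nup2-MN, against 6.80% of the whole array. At least 2-fold lower were 7 (2.80%), against 1.84% of all. Higher calls made up 61.1% of the members past the threshold and 78.7% over the whole series. With each column centred on its median, the counts were 21 higher and 2 lower (91.3% higher, and 93.9% in the series), and with quantile normalization of the columns they were 16 and 5 (76.2%, and 88.1%). After removal of the trend with signal level they were 19 and 3 (86.4%, and 91.7%). With means over 3 neighbours they were 0 and 4 in the members, against 37 and 8 in the series (82.2% higher). At a difference of 0.5 or more on the log2 scale, 14.0% of the members were higher, against 19.2% of all, and 29.2% were lower, against 28.0%. The median difference was -0.18 in the members and -0.15 over all probe sets, and the upper quartile was 0.17 in the members and 0.35 in the other 1000.

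The highest member in this comparison was c6Mbo0246, at 6.65 in uncleaved DNA, 8.45 with H2b-MN and 8.50 with Nup2-MN. Both cleaved samples were high there, and Nup2-MN exceeded uncleaved DNA 3.60-fold (log2 difference 1.85). Next was c6Mbo0178, at 5.73, 6.36 and 7.23, where the samples stood in that order from low to high and Nup2-MN was 2.82-fold above uncleaved DNA (1.49). The lowest was c6Mbo0239, at 8.34, 6.96 and 6.82, with both cleaved samples low and a log2 difference of -1.52, the lowest of the whole array. It was followed by c6Mbo0126, at 8.66, 8.17 and 7.36 (-1.29), where Nup2-MN alone lay far below uncleaved DNA.

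The other 9 members higher in Nup2-MN, given here after their values were seen, were probe sets 11, 23, 76, 98, 153, 166, 229, 234 and 249, with log2 differences from 1.01 to 1.48. All 11 together had a median of 1.39 for Nup2-MN minus uncleaved and of 0.76 for H2b-MN minus uncleaved, the latter running from -0.83 to 1.80. Both differences contain the same uncleaved value, so they are set side by side only. Probe set c6Mbo0023 read 7.20, 8.65 and 8.62, with both cleaved samples high by about the same amount (1.46 in H2b-MN and 1.42 in Nup2-MN). In contrast, c6Mbo0249 read 8.58, 8.69 and 10.06, with only Nup2-MN high. The other 5 lower members were probe sets 32, 82, 83, 212 and 240, from -1.14 to -1.03.

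**Figure D3:**
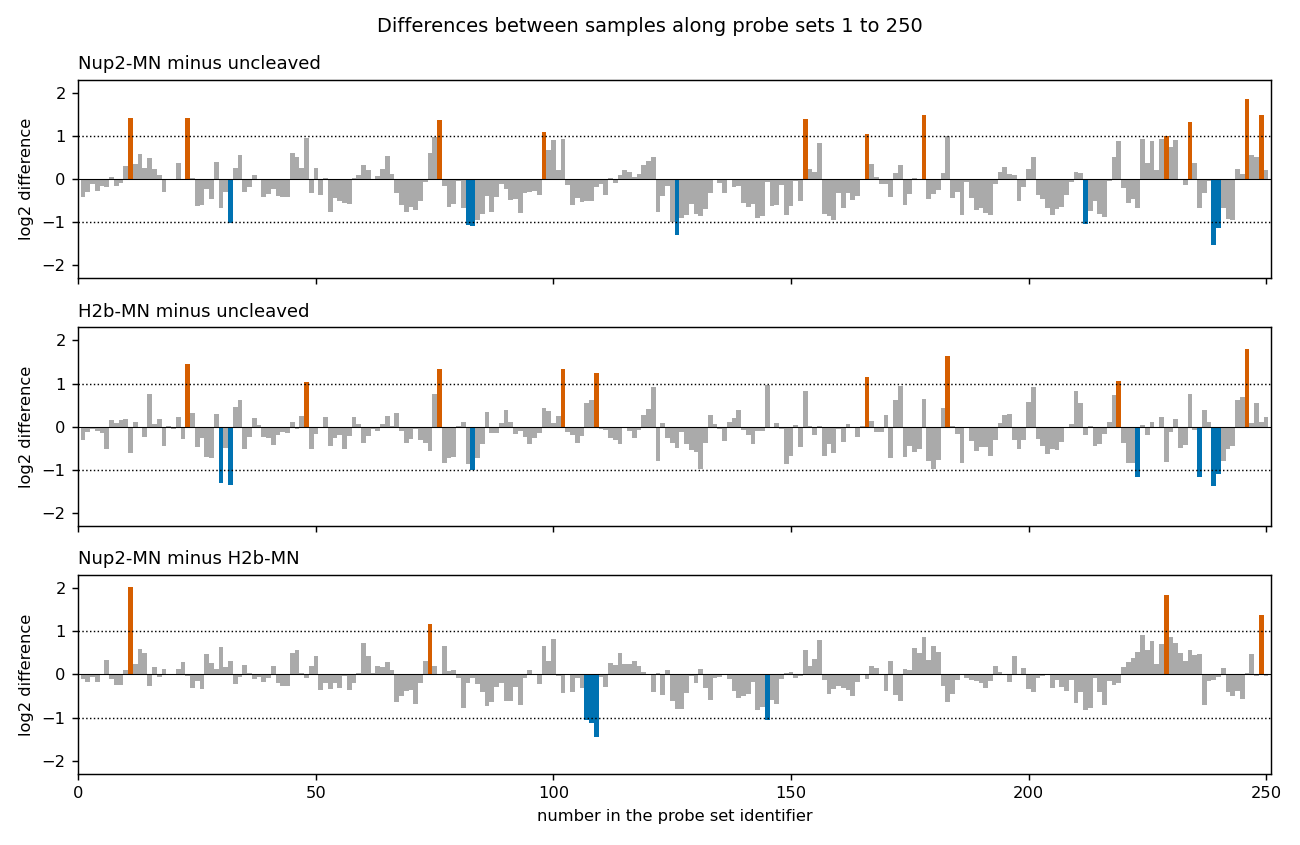
Log2 difference (vertical axis) at each of the 250 probe sets (horizontal axis, number in the identifier) for the 3 comparisons, with orange bars at least 2-fold higher, blue bars at least 2-fold lower and dotted lines at 2-fold. Of the orange and blue bars, 11 and 7 stand in the Nup2-MN minus uncleaved panel, 9 and 7 in the H2b-MN minus uncleaved panel and 4 and 4 in the Nup2-MN minus H2b-MN panel.

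For H2b-MN against uncleaved DNA, 9 members (3.60%) were at least 2-fold higher, against 2.80% of all, and 7 (2.80%) at least 2-fold lower, against 2.40%. At 0.5 or more, 11.6% were higher, against 13.4% of all, and 18.8% lower, against 15.2%. The median was -0.12 in the members and -0.04 over all probe sets. The highest were c6Mbo0246 again (1.80) and c6Mbo0183, at 5.88 in uncleaved DNA, 7.52 with H2b-MN and 6.87 with Nup2-MN (1.64). These were the 2nd and 3rd largest H2b-MN differences of the series. The lowest were c6Mbo0239 (-1.38) and c6Mbo0032, at 10.12, 8.78 and 9.09 (-1.34). Uncleaved DNA was the high sample at both.

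The other 7 higher members, also named after their values were seen, were probe sets 23, 48, 76, 102, 109, 166 and 219, from 1.05 to 1.46, and the other 5 lower ones were 30, 83, 223, 236 and 240, down to -1.30 at c6Mbo0030. The members higher in H2b-MN had uncleaved signals from 5.88 to 7.79 with a median of 6.65. The members lower in H2b-MN had uncleaved signals from 7.63 to 10.12 with a median of 8.56. The uncleaved value enters the difference itself, so this order is a description and carries no test.

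Nup2-MN and H2b-MN were set directly against each other at their unequal times and temperatures, a difference that does not contain the uncleaved value. Here 4 members (1.60%) passed 2-fold in favour of Nup2-MN, against 4.32% of all, and 4 (1.60%) in favour of H2b-MN, against 1.84%. The members past the threshold were thus evenly split, while 70.1% were higher over the whole series. Quantile normalization of the columns gave 4 higher and 3 lower (57.1% higher, and 74.6% in the series). Centring the columns gave 7 higher and 1 lower (87.5% higher, and 84.9% in the series), and removal of the trend with level gave 5 and 1 (83.3%, and 82.5%). At 0.5 or more, 10.4% were higher, against 13.1% of all, and 12.0% lower, against 15.6%. The SD over the members was 0.452, against 0.531 over the other 1000. The median was -0.07 in the members and -0.07 over all probe sets.

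After c6Mbo0011, the highest in the direct comparison was c6Mbo0229, at 8.49 in uncleaved DNA, 7.66 with H2b-MN and 9.50 with Nup2-MN. Nup2-MN exceeded H2b-MN 3.56-fold there (1.83), with uncleaved DNA between them. The other 2 higher ones, seen after the values, were c6Mbo0249 (1.37) and c6Mbo0074 (1.16). The lowest was c6Mbo0109, at 6.08, 7.33 and 5.89, with H2b-MN alone high and a difference of -1.44, the lowest of the whole array. It was followed by c6Mbo0108, at 7.14, 7.75 and 6.63 (-1.13, and -0.96 with the columns centred). The remaining lower ones were c6Mbo0107 (-1.05) and c6Mbo0145 (-1.05).

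**Figure D4:**
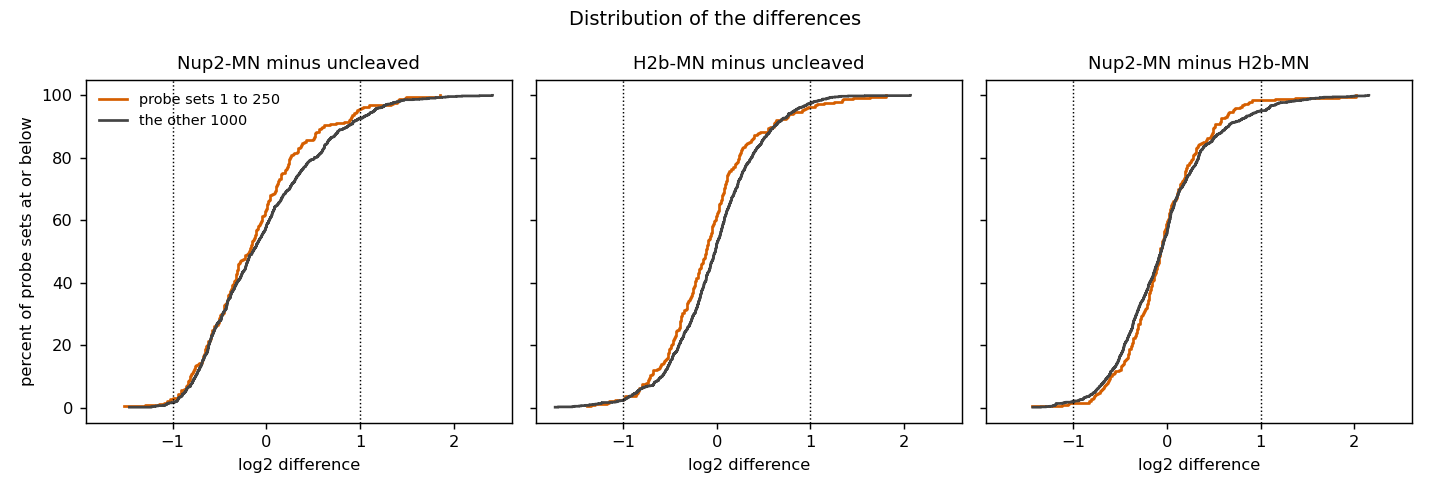
Percent of probe sets (vertical axis) at or below each log2 difference (horizontal axis) in the 3 comparisons, for probe sets 1 to 250 and the other 1000, with dotted lines at 2-fold. In Nup2-MN minus uncleaved the upper quartile of the members is 0.17 and that of the others 0.35.

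Some of the differences lay in stretches of neighbouring numbers with the same direction. A stretch was counted where 3 or more neighbours all differed by at least 0.5 on the log2 scale, and among equally long ones the larger mean difference was put first. Nup2-MN lay below uncleaved DNA in 11 such stretches, which held 50 members (20.0%, against 18.0% of the whole array in such stretches), and above it in 4, which held 14 (5.60%, against 10.6%). Of the members at least 0.5 lower in Nup2-MN, 50 of 73 thus lay in a stretch, against 225 of 350 on the whole array. Of the members at least 0.5 higher, 14 of 35 did, against 132 of 240. The longest stretch of members was probe sets 125 to 132, 8 neighbours with a mean of -0.87 and values from -1.29 to -0.58. Mean signals over it were 7.95 in uncleaved DNA, 7.47 with H2b-MN and 7.08 with Nup2-MN. H2b-MN thus lay between the other 2 samples, with a mean of -0.48 against uncleaved DNA. The next was 239 to 243, with a mean of -1.04. In the other direction the longest were 246 to 249 (mean 1.10) and 228 to 231 (mean 0.90).

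H2b-MN lay below uncleaved DNA in 7 stretches of 22 members (8.80%, against 5.76% of all) and above it in 2 stretches of 6 members (2.40%, against 3.04%). These were 22 of the 47 members lower by at least 0.5 (72 of 190 on the whole array) and 6 of the 29 higher (38 of 168). Most thus lay outside stretches, in the members as on the whole array. The longest lower one was 239 to 242, with a mean of -0.94, followed by 221 to 223, with -0.95. The higher ones were 244 to 246 (mean 1.03) and 107 to 109 (mean 0.80). In the direct comparison Nup2-MN lay above H2b-MN in 3 stretches of 11 members (4.40%, against 7.92% of all) and below it in 3 of 11 (4.40%, against 6.80%). These were 11 of the 26 members higher by at least 0.5 (99 of 164 on the whole array) and 11 of the 30 lower (85 of 195). Of these stretches, 228 to 231 (mean 1.04) and 223 to 226 (mean 0.69) were the longest higher ones, and 143 to 147 (mean -0.78) and 107 to 109 (mean -1.21) the longest lower ones.

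Probe sets 107 to 109 were the stretch where H2b-MN stood highest over Nup2-MN. Their mean signal was 7.04 in uncleaved DNA, 7.84 with H2b-MN and 6.64 with Nup2-MN. The H2b-MN difference from uncleaved DNA grew along them, from 0.54 at c6Mbo0107 through 0.62 at c6Mbo0108 to 1.25 at c6Mbo0109. At c6Mbo0110 the samples came together again, at 6.04, 5.98 and 5.93.

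The last 25 members, 226 to 250, were the block with the widest spread in all 3 comparisons. In Nup2-MN minus uncleaved, the SD was 0.86 among them and between 0.34 and 0.64 in the 9 blocks of 25 before them. Over the other 1000 probe sets it was 0.63. For H2b-MN minus uncleaved the SD was 0.70 in the last block, at most 0.59 in the blocks before and 0.49 over the other 1000. For Nup2-MN minus H2b-MN these were 0.60, 0.48 and 0.53. These 25 held 4 of the 11 higher and 2 of the 7 lower members of that comparison, where 6.80% and 1.84% of the whole array were called. They also held 2 of the 4 members higher in Nup2-MN than in H2b-MN, a call made at 4.32% of the array. In H2b-MN minus uncleaved they held 1 of the 9 higher and 3 of the 7 lower members, calls made at 2.80% and 2.40% of the array. Their median Nup2-MN minus uncleaved difference was 0.22, while the block 126 to 150 had the lowest, -0.59. Over 228 to 231, Nup2-MN had a mean of 8.50 against 7.60 in uncleaved DNA and 7.46 in H2b-MN. Over 239 to 243 the order turned, with means of 7.48 in uncleaved DNA, 6.63 with H2b-MN and 6.44 with Nup2-MN. Directly after, over 244 to 249, both cleaved samples were the higher ones, at 8.33 in H2b-MN and 8.48 in Nup2-MN against 7.69 in uncleaved DNA. Nup2-MN minus uncleaved was -0.95 at c6Mbo0243, 0.12 at c6Mbo0245 and 1.85 at c6Mbo0246. These blocks were compared after their values were seen, and blocks outside the 250 were not compared.

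**Figure D5:**
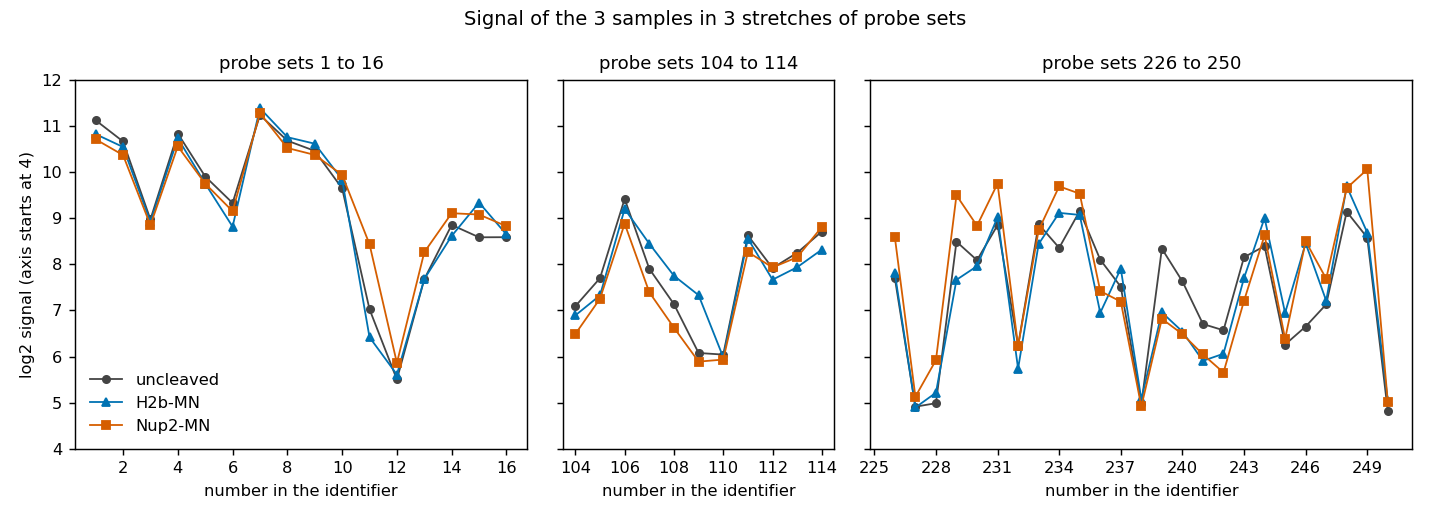
Log2 signal (vertical axis, starting at 4) of uncleaved DNA (circles), H2b-MN (triangles) and Nup2-MN (squares) in probe sets 1 to 16, 104 to 114 and 226 to 250 (horizontal axis, number in the identifier). The samples run together over 1 to 10, Nup2-MN stands alone at 11 (8.43), H2b-MN stands above the others over 107 to 109, and both cleaved samples lie below uncleaved DNA over 239 to 243.

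Neighbours were alike to different degrees in the 3 comparisons. Over the 249 pairs of neighbours among the members, the correlation of a probe set with the next was 0.490 for Nup2-MN minus uncleaved, 0.254 for H2b-MN minus uncleaved and 0.538 for Nup2-MN minus H2b-MN. Over the 999 pairs of the other probe sets these were 0.639, 0.350 and 0.640. At a distance of 2 the members gave 0.325, -0.01 and 0.405. Probe sets share their arrays and are not replicates, so these values are descriptions with no test. The 3 columns themselves correlated across the 250 members at 0.927 (uncleaved and H2b-MN), 0.910 (uncleaved and Nup2-MN) and 0.944 (the cleaved samples), against 0.929, 0.888 and 0.923 across the other 1000.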

How the data were processed

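Biotin-labelled genomic DNA of 3 ChEC samples was read on Affymetrix arrays that tile yeast chromosome VI. Probes were joined by the authors into sets of up to 16, none of which crosses a cutting site of MboI, a restriction enzyme, per the deposited README. The same README says that the authors computed the deposited log2 signal by RMA (which corrects background, gives all arrays 1 distribution and summarises each set's probes robustly) in Bioconductor 1.5 and averaged 3 experiments. A shift shared by most probe sets is removed by such a normalization. No genome build was given in the sources used here. The number of arrays limits the precision.

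Differences of log2 values were taken over the whole array with no filter, and called at 2-fold. With 1 value per group no test was made. The named probe sets were the 2 highest and 2 lowest members of each comparison, the 2 brightest and 2 dimmest, the first 10, and the longest 2 stretches in each direction, with others marked as named after their values were seen. Members, lists and settings, among them the cut at the first 10, were chosen with earlier results of these data known. Tried as alternatives were column centring, quantile normalization, a lowess trend with level subtracted (span 0.4), a threshold of 1.5-fold, means over 3 neighbours, and tables without the 10% of probe sets lowest in mean signal or without probe sets 1 to 10. The scripts were tested on simulated data with a log2 step of 2, which checks the code and not how reliable the calls are. Python 3.11.15, numpy 2.4.6, pandas 2.3.3, statsmodels 0.14.6 and matplotlib 3.10.9 were used.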

Additional observations from a re-analysis of the deposited data

Results flagged for a closer look

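At 5 of the 250 probe sets (2.00%, against 1.28% of the whole array) the 2 fusions lay at least 0.5 from uncleaved DNA in opposite directions, a cut-off chosen after the values were seen. With 1 value per group, the difference between the fusions was not tested at any of them. At c6Mbo0011, Nup2-MN lay above uncleaved DNA by 1.41 and H2b-MN was at -0.61, so that Nup2-MN minus H2b-MN was 2.02. At c6Mbo0229 these values were 1.01, -0.83 and 1.83, and at c6Mbo0074 they were 0.59, -0.56 and 1.16. The opposite order was seen at c6Mbo0107, with Nup2-MN at -0.51 and H2b-MN at 0.54 (Nup2-MN minus H2b-MN -1.05), and at its neighbour c6Mbo0108, with -0.51 and 0.62 (-1.13).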

How the results depend on the processing

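No paired analysis was possible because the results come from no test and each group has 1 column. Counts of members are given as higher, then lower. Nup2-MN minus uncleaved gave 11 and 7, which became 21 and 2 with centred columns, 19 and 3 once the level trend was subtracted, 27 and 59 at a 1.5-fold threshold, and 0 and 4 with means over 3 neighbours, where 37 and 8 passed on the whole array. H2b-MN minus uncleaved gave 9 and 7, which became 25 and 35 at the lower threshold and 1 and 2 with neighbour means. The direct comparison gave 4 and 4, which became 7 and 1 with centred columns, 18 and 27 at the lower threshold, and 2 and 1 with neighbour means, while subtracting the trend left 1 lower. A lower threshold raises counts by its construction, and centring removes the offset between columns. With neighbour means the higher calls of Nup2-MN minus uncleaved went from 11 to 0 among the members and from 85 to 37 on the whole array. For the neighbour means and the trend the cause was not tested. The median of Nup2-MN minus uncleaved (-0.18) was -0.033 with centred columns and -0.30 without the lowest 10%. The median of the direct comparison (-0.07) turned to 0.090 with centred columns and to 0.0067 without the trend. In uncleaved DNA the members' median exceeded that of the others by 0.33, and by 0.22 without probe sets 1 to 10. The other 48 of 72 recomputed counts, medians and correlations moved by at most 1.5 times (counts) or by less than 0.1. For the named probe sets, 37 of 48 recomputed differences stayed past 2-fold and 0 changed sign, and 9 of the 11 that did not stay came from neighbour means.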
